A study of Mus musculus with 9 samples.

Results

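The genes described here are the 4 members of the MyoD family, Myod1, Myf5, Myog (myogenin) and Myf6 (also called Mrf4), and 3 members of the MEF2 family, Mef2a, Mef2c and Mef2d. They were chosen by symbol, though with earlier results of these data known, and are 7 of 24063 gene symbols in the deposited tables. Where a symbol had several transcripts, the one with the highest mean count stood for the gene. All 7 passed the filter on low counts and were tested.

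The libraries came from C2C12, an established mouse myoblast line whose cells stop dividing and fuse into multinucleated fibres in low serum. Each of 3 groups holds 3 RNA libraries of wild-type cells, differentiated in DMEM with 2% FBS and labelled day 3. The 1C-MIM fibres were given 6 metabolites of the one-carbon network in their medium, the scramble fibres 6 metabolites outside that network, and the control fibres normal medium. The labels name neither the metabolites nor their doses. All groups are 1 cell line, and nothing in the labels ties the 3 libraries of a group to separate cultures, so each p-value speaks only to the spread between libraries, which may be technical. Depth with 1 transcript per gene was 29.0 to 30.3 M counts in 1C-MIM, 29.1 to 31.8 M in scramble and 31.2 to 33.2 M in control libraries.

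The MyoD family are basic helix-loop-helix factors that pair with E proteins and bind the E box, the sequence CANNTG, in muscle genes. Myf5 and Myod1 act early and commit cells to muscle, Myog drives terminal differentiation and fusion, and Myf6 is a late factor of maturing fibres. MEF2 proteins are MADS-box factors that bind an A/T-rich element, work together with the MyoD family and are held back by class IIa histone deacetylases.

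In 1C-MIM fibres 5 of the 7 genes rose and 1 fell against control fibres, and the same 5 rose and the same 1 fell against scramble fibres. Myog and Mef2a rose most, to 2.33-fold and 2.09-fold the control level. Myod1, Mef2d and Myf6 rose to between 1.40-fold and 1.49-fold. Mef2c fell to 0.573-fold, and Myf5 did not pass the test in either comparison. Calls were made at an adjusted p below 0.05 in edgeR's quasi-likelihood test with Benjamini-Hochberg adjustment over 14006 genes. Calls covered 47.3% of all tested genes against control and 46% against scramble, so a call by itself does not set a gene apart here. By size, 5.08% of tested genes had a larger absolute log2 fold change than Myog against control, and 6.95% had a larger one than Mef2a. The figure was 11.8% for Mef2c, 19.5% for Myf6, 22.2% for Mef2d, 24.4% for Myod1 and 96.0% for Myf5.

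**Figure D1:**
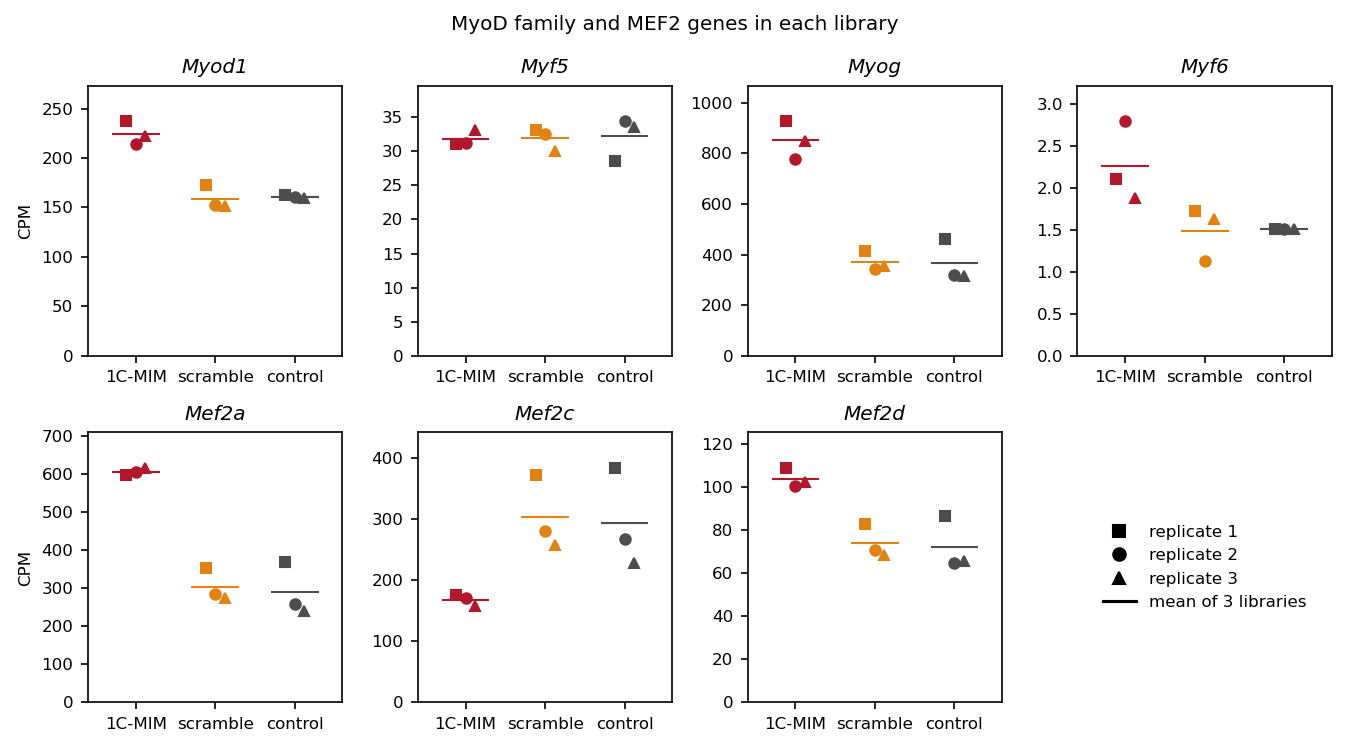
Normalized counts (CPM, y axis, linear from 0) of each gene in each library, with 1C-MIM, scramble and control from left to right; squares, circles and triangles are replicates 1, 2 and 3, and the line is the mean of 3 libraries. Myog lies between 779 and 927 CPM in 1C-MIM libraries, above the scramble and control libraries, while Myf5 overlaps in all groups.

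Levels within a gene are given as CPM, counts scaled to the normalized library size. Myod1, the factor that can turn other cell types into muscle, had 237, 214 and 222 CPM in 1C-MIM libraries 1 to 3. It had 173, 152 and 152 CPM in the scramble libraries and 163, 160.2 and 159 CPM in the control libraries. Every 1C-MIM library lay above every other library, and the scramble and control libraries overlapped. Myod1 rose by a log2 fold change of 0.48 ± 0.06 (SE) against control (edgeR, adjusted p = 8.6e-05) and of 0.50 ± 0.06 against scramble (adjusted p = 7.7e-05). Its SD was 11.5 CPM over the 1C-MIM libraries and 1.60 CPM over the control libraries, both far below the difference of the means, 225 CPM in 1C-MIM against 161 CPM in control.

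Myf5 is the other early factor and also a mark of undifferentiated myoblasts and satellite cells. The 1C-MIM libraries held 31.0, 31.2 and 33.1 CPM of it, the scramble libraries 33.1, 32.5 and 30.1 CPM, and the control libraries 28.5, 34.4 and 33.6 CPM. The 3 groups overlapped throughout. The log2 difference between 1C-MIM and control was -0.02, with a 95% interval of -0.18 to 0.15 (edgeR, adjusted p = 0.869). Against scramble it was 0.00, with an interval of -0.17 to 0.16 (adjusted p = 0.968). These intervals do not include changes as large as that of Myod1.

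Myog had 927, 779 and 849.7 CPM in 1C-MIM libraries 1 to 3. It had 415, 345 and 354 CPM in scramble libraries and 462, 320.3 and 316 CPM in control libraries. The lowest 1C-MIM library held more Myog than any of the other 6. Control replicate 1 stood above the other controls, by 0.54 on the log2 scale relative to their mean, and scramble replicate 1 stood 0.25 above its group's other libraries. The rise in 1C-MIM was 1.22 ± 0.15 against control (edgeR, adjusted p = 0.00013) and 1.20 ± 0.15 against scramble (adjusted p = 0.00016), as log2 fold changes ± SE. Without control replicate 1 the log2 fold change against control was 1.42.

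Myf6 was scarce, with 60, 81 and 56 counts in 1C-MIM libraries, 55, 33 and 48 in scramble libraries and 48, 49 and 51 in control libraries. As CPM these were 2.11, 2.80 and 1.88 in 1C-MIM, 1.72, 1.13 and 1.63 in scramble, and 1.51, 1.52 and 1.52 in control. The 1C-MIM libraries all lay above the others, though the gap between 1.88 CPM in 1C-MIM and 1.72 CPM in scramble was narrow. The log2 fold change was 0.58 ± 0.21 against control (edgeR, adjusted p = 0.041) and 0.60 ± 0.21 against scramble (adjusted p = 0.039). This call did not survive the loss of most single libraries. Against control it was lost without 1C-MIM replicate 1 or 2 and without any 1 of the 3 controls, with adjusted p-values of 0.0591 to 0.170. Against scramble it was lost without 1C-MIM replicate 1 or 2 and without scramble replicate 2 or 3.

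**Figure D2:**
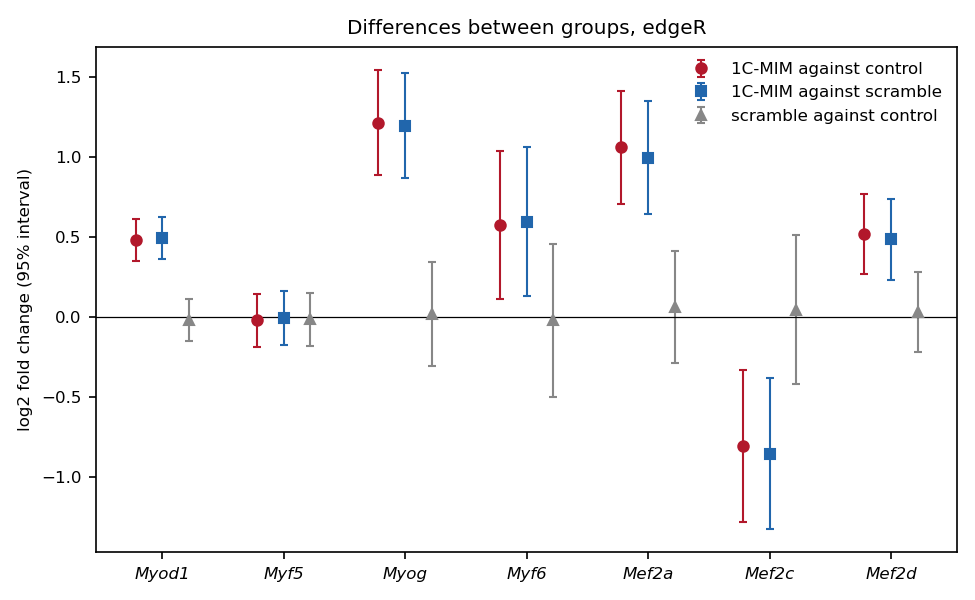
Log2 fold change (y axis) of each gene (x axis) in 3 comparisons, with 95% intervals from the edgeR fit as bars. The points for 1C-MIM against control and against scramble lie side by side, from 1.22 for Myog to -0.85 for Mef2c, and every interval for scramble against control spans 0.

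Among the MEF2 genes, Mef2a and Mef2c moved in opposite directions. Mef2a, which is expressed in many tissues and in mature fibres, had 596, 605 and 616 CPM in 1C-MIM libraries, 353, 284 and 274 CPM in scramble libraries and 369.7, 259.8 and 240.2 CPM in control libraries. The 1C-MIM libraries were close to each other and all above the rest, and replicate 1 was the highest of both other groups. Mef2a rose by 1.06 ± 0.16 against control (edgeR log2 fold change ± SE, adjusted p = 0.00053) and by 1.00 ± 0.16 against scramble (adjusted p = 0.00080).

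Mef2c, which in mice is needed for heart development and for sarcomere integrity in muscle, had 175, 171 and 158 CPM in 1C-MIM libraries. Scramble libraries held 373, 280.1 and 257 CPM and control libraries 384, 267 and 229 CPM. Every 1C-MIM library lay below every other library, with replicate 1 again the highest of the scramble and control groups. Mef2c fell by 0.80 ± 0.20 on the log2 scale against control (edgeR, adjusted p = 0.0129) and by 0.85 ± 0.20 against scramble (adjusted p = 0.0103). Without control replicate 1 the log2 fold change against control was -0.56, with an adjusted p of 0.026.

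Mef2d, a widely expressed member, had 109, 100.2 and 102 CPM in 1C-MIM libraries, 82.8, 70.9 and 68.2 CPM in scramble libraries and 86.6, 64.6 and 65.7 CPM in control libraries. All 1C-MIM libraries were above all others. The log2 fold change was 0.52 ± 0.11 against control (edgeR, adjusted p = 0.0039) and 0.49 ± 0.11 against scramble (adjusted p = 0.0058). By exon position Mef2d overlaps 1700113A16Rik on the opposite strand in the annotation, and the sources used here do not say if strand was used in counting, so reads of that gene may be included. Mef2b, the remaining MEF2 gene, had 4 to 13 counts per library and was not called.

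None of the 7 genes was called between scramble and control fibres, where 0% of tested genes were called by edgeR, 482 genes (3.44%) had an unadjusted p below 0.05, and DESeq2 called 4. The log2 differences of the 7 lay between -0.02 and 0.07, each with an adjusted p of 1.00 after rounding, and for all 7 the libraries of both groups overlapped, where those of 9.09% of tested genes did not. The 95% intervals were -0.30 to 0.34 for Myog, -0.28 to 0.42 for Mef2a, -0.42 to 0.52 for Mef2c and -0.15 to 0.12 for Myod1. A difference of Mef2a or Mef2c was thus bounded less tightly than one of Myod1. Against control, 6 of the 7 genes had 1C-MIM libraries entirely above or below, where 55.5% of tested genes did. Against scramble it was also 6 of 7, where 59.5% did. Both comparisons use the same 1C-MIM libraries and are not independent of each other.

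Libraries numbered 1 stood apart within the scramble and control groups, and in control did so for 4 of the 7 genes together. They also scored highest in their groups on the second principal component of all tested genes. In control, replicate 1 exceeded the mean of the other 2 by 0.64 for Mef2c, 0.57 for Mef2a, 0.54 for Myog and 0.41 for Mef2d on the log2 scale, while Myod1 differed by 0.02 and Myf5 by -0.25. Scramble replicate 1 was higher by 0.48 for Mef2c, 0.34 for Mef2a, 0.33 for Myf6, 0.25 for Myog and Mef2d, 0.19 for Myod1 and 0.08 for Myf5. In 1C-MIM the same differences ran from -0.12 to 0.19. Without the libraries numbered 1 in all groups, the log2 fold changes in 1C-MIM against control were 1.35 for Myog, 1.29 for Mef2a and -0.60 for Mef2c, all called by edgeR. Whether replicate 1 differed in culture or handling was not tested.

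Reads per transcript length allow levels to be compared between genes, and for this the deposited TPM (reads scaled to transcript length and library total) were used. In 1C-MIM fibres Myog was at 810.0 ± 74 TPM (mean ± SD, n = 3), followed by Myod1 at 171 ± 9.6, Mef2a at 154 ± 1.9, Mef2d at 59.3 ± 2.9, Mef2c at 36.8 ± 2.1, Myf5 at 21.5 ± 0.72 and Myf6 at 2.55 ± 0.53 TPM. No 2 neighbours in that order overlapped between libraries. In scramble fibres the order was Myog at 348 ± 42 TPM, Myod1 at 119 ± 11, Mef2a at 76.0 ± 12, Mef2c at 65.6 ± 14, Mef2d at 41.7 ± 5.1, Myf5 at 21.2 ± 1.3 and Myf6 at 1.66 ± 0.37 TPM. Control fibres had the same order, with Myog at 345 ± 90.1 TPM, Myod1 at 120.4 ± 5.1, Mef2a at 73.0 ± 20.1, Mef2c at 63.7 ± 19.7, Mef2d at 40.96 ± 8.4, Myf5 at 21.4 ± 1.5 and Myf6 at 1.69 ± 0.05 TPM. Mef2a and Mef2c overlapped in scramble and in control, and Mef2c and Mef2d overlapped in control. Mef2c thus lay above Mef2d in mean TPM in scramble and control fibres and below it in 1C-MIM fibres. This order and the MEF2 shares depend on the transcript lengths, 6427 bases for Mef2c and 2459 for Mef2d. By CPM, not scaled to length, Mef2c stayed above Mef2d in 1C-MIM, with means of 168 and 104 CPM.

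**Figure D3:**
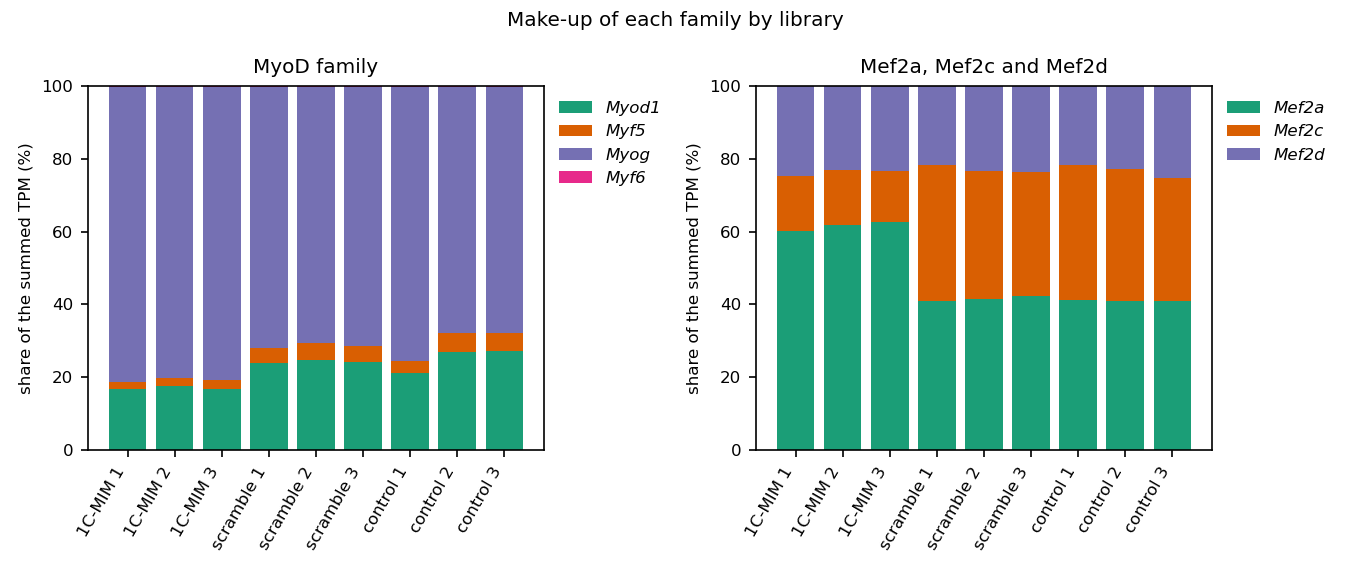
Share of each gene in the summed TPM of its family (y axis, percent) in each library, with 1C-MIM, scramble and control libraries from left to right; the left panel shows the MyoD family and the right panel the 3 MEF2 genes. Mef2c makes up 13.9% to 15.2% of the MEF2 sum in 1C-MIM libraries and 33.7% to 37.3% in the others.

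The make-up of both families followed from these levels and is given as a description. Myog made up 80.6 ± 0.71% of the MyoD family's TPM in 1C-MIM, 71.0 ± 0.72% in scramble and 70.1 ± 4.5% in control (mean ± SD, n = 3 each). Myod1 held 17.0% in 1C-MIM, 24.3% in scramble and 25.1% in control. Myf5 held 2.15% in 1C-MIM, 4.35% in scramble and 4.51% in control. The family's sum was 1005 ± 83 TPM in 1C-MIM, 490 ± 54 in scramble and 489 ± 94 in control. Within MEF2, Mef2a made up 61.6 ± 1.4% of the sum in 1C-MIM, 41.5 ± 0.60% in scramble and 41.1 ± 0.19% in control. Mef2c made up 14.7 ± 0.74% in 1C-MIM, 35.6 ± 1.6% in scramble and 35.6 ± 1.7% in control. Mef2d held 23.7% in 1C-MIM, 22.9% in scramble and 23.3% in control. The MEF2 sum was 248 to 254 TPM over the 1C-MIM libraries, 161 to 219 TPM over the scramble libraries and 145 to 233 TPM over the control libraries.

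Ratios were also taken within each library. The ratio of Mef2a to Mef2c in TPM was 3.95, 4.12 and 4.53 in 1C-MIM libraries, 1.10, 1.18 and 1.24 in scramble libraries and 1.12, 1.13 and 1.22 in control libraries. Replicate 1 did not stand out in this ratio in either scramble or control, and the 1C-MIM libraries lay far above both. The ratio of Myog to Myod1 was 4.89, 4.55 and 4.79 in 1C-MIM, 3.00, 2.84 and 2.93 in scramble and 3.56, 2.50 and 2.49 in control. Here control replicate 1 did stand out, between the other controls and the 1C-MIM libraries. These pairs were picked after the values were seen and were not tested.

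**Figure D4:**
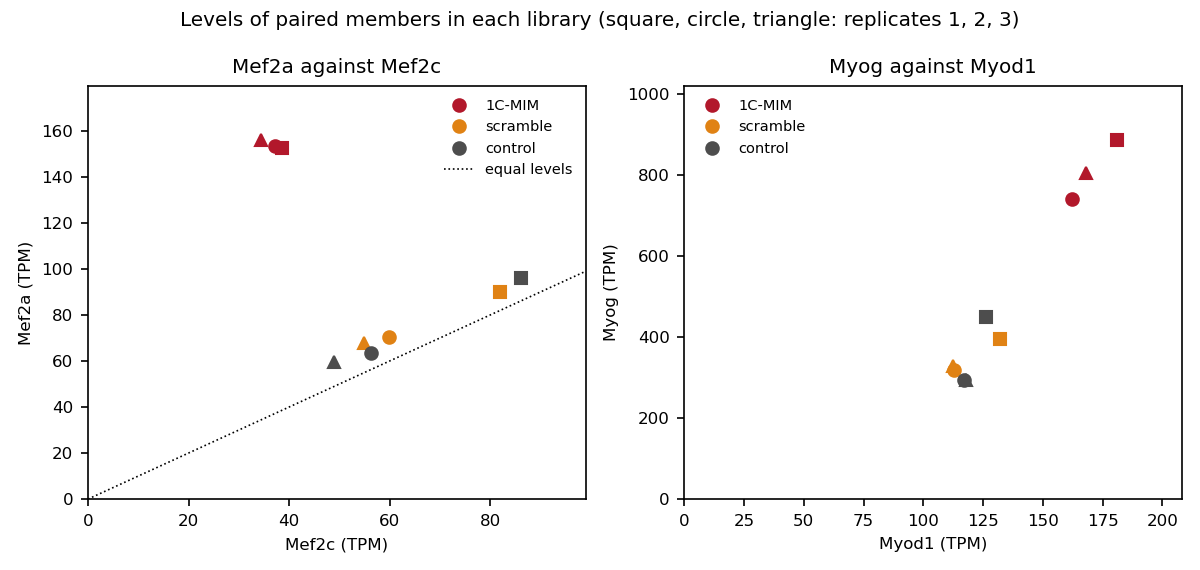
Mef2a against Mef2c (left) and Myog against Myod1 (right), in TPM on linear axes from 0, with 1 point per library and the dotted line marking equal levels of Mef2a and Mef2c. The 6 scramble and control libraries lie near the dotted line, with ratios of 1.10 to 1.24, and the 1C-MIM libraries lie apart at 3.95 to 4.53.

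The choice of transcript changed no call of a member. The tables held 12 transcripts of the 7 genes, of which 5 were of Mef2a and 2 of Mef2c. Their counts differed by at most 0.247% between the transcripts of Mef2a and 0.182% between those of Mef2c, so the tables do not tell isoforms of either gene apart. Tested as rows of their own against control, all 5 Mef2a transcripts had a log2 fold change of 1.08 and both Mef2c transcripts one of -0.79. Isoform switches of MEF2 genes, known from muscle differentiation, could not be examined.

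Promoter sequence was looked at for the members that moved together or apart. RefSeq (GRCm38.p6) windows of the 250 bases before the start were matched for 5 of the 7 genes, with 3 windows for Mef2c, and coordinates are of that build, not of the authors' GRCm39. The windows of Myog, Mef2a and the first start of Mef2c are printed 5′ to 3′ because these genes moved most. They are Myog at chr1:134289754-134290003 (plus strand), Mef2a at chr7:67372859-67373108 (minus strand) and Mef2c at chr13:83503784-83504033 (plus strand). Capitals mark E boxes (CANNTG) and MEF2 cores (TA, then 4 letters that are each A or T, then TA); both patterns read the same on either strand, and no match overlapped another.
Myog: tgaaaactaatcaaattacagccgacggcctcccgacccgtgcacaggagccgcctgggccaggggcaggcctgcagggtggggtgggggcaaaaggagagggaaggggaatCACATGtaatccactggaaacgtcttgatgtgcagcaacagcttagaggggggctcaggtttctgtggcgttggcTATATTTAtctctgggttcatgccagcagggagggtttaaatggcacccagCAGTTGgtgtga
Mef2a: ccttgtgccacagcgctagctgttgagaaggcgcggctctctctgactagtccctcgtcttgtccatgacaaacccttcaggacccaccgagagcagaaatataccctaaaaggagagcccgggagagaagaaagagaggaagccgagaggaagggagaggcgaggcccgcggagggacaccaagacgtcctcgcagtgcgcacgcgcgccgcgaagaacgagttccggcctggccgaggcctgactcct
Mef2c: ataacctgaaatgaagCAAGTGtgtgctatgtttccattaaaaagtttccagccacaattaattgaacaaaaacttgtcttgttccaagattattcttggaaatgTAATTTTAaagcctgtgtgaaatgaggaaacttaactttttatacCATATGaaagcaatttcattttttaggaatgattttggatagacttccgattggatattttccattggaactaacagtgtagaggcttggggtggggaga

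The Myog window holds the E boxes CACATG and CAGTTG, which begin 138 and 12 bases before the start, and the MEF2 core TATATTTA, which begins 63 bases before it. The Mef2c window holds 2 E boxes and 1 MEF2 core, TAATTTTA, which begins 145 bases before the start. Of its other windows 1 has a single E box and the other has no match. The windows of Mef2a, Mef2d and Myf5 hold neither motif. An E box is in 66.2% of 32536 RefSeq promoter windows of this length and at least 2 are in 31.7%, while the MEF2 core is in 8.53% and both together are in 5.84%. The longer MEF2 consensus was in 2.89% of windows and in no member's. The core was searched after the windows had been seen. A match is only a run of letters, and Myog, which rose, and Mef2c, which fell, both hold both motifs. Which start the fibres used is not known from these tables.

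The partners, regulators and targets of these factors were described from 7 lists with 110 tested genes in all. Each list's counts stand against 22.9% of all tested genes called higher and 24.3% called lower in 1C-MIM against control (22.9% and 23.2% against scramble), and its median against -0.01 for all tested genes.

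The genes of the E proteins Tcf12 and Tcf4, which pair with the MyoD family, rose. The third, Tcf3, did not pass the test, so that 2 of 3 were higher (median log2 fold change 0.52). Tcf12 averaged 275 ± 11 CPM in 1C-MIM and 182 ± 1.9 CPM in control (SD, n = 3 each), a log2 fold change of 0.60 ± 0.05 (edgeR, adjusted p = 4.4e-06). Tcf4 had 349 ± 36 CPM in 1C-MIM and 243 ± 12 CPM in control. Tcf3 had 122 ± 0.75 CPM in 1C-MIM and 129.6 ± 7.3 CPM in control, and its log2 difference of -0.08 was called only without control replicate 1 (edgeR, adjusted p = 0.0379) or without all libraries numbered 1.

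The inhibitors split. Of 15 tested, 5 rose and 6 fell, with a median of -0.07. The Id proteins capture E proteins and keep them from DNA. Their genes fell in RNA, Id1 by 0.79, Id2 by 0.76 and Id3 by 0.33 on the log2 scale. Id1 stood at 25.4 ± 1.8 CPM in 1C-MIM and 43.9 ± 7.0 CPM in control. Id4 had at most 10 counts in a library and was not tested. Heyl, a Notch-responsive repressor, rose to 225 ± 11 CPM in 1C-MIM, against 50.6 ± 10.3 CPM in control (log2 fold change 2.15 ± 0.15, edgeR, adjusted p = 8.2e-06). Snai1, a repressor that occupies E boxes, rose by 1.01 ± 0.08, while Snai2 and Bhlhe41 lay at -0.07 and 0.02 and were not called. Id3 was not called against scramble (log2 difference -0.12, edgeR, adjusted p = 0.253), and Id1 and Id2 fell there by 0.57 and 0.46.

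Of 11 upstream regulators tested, 5 rose against control and none was called lower in the fit reported here, with a median of 0.41. Among them were the homeobox factor Six4 (0.72), its cofactor Eya1 (0.67), the satellite cell factor Pax7 (0.46) and Pitx3 (0.93), given as log2 fold changes. Six4 averaged 70.8 ± 4.2 CPM in 1C-MIM and 42.95 ± 3.5 CPM in control. Pax7 averaged 39.4 ± 0.27 CPM in 1C-MIM and 28.7 ± 2.3 CPM in control. Tbx1 (0.07), Six5 (-0.14), Eya3 (-0.10), Eya4 (-0.17) and Pax3 (0.41, under 1 CPM) were among those not called. Eya4 was called lower without control replicate 2 or 3 or without 1C-MIM replicate 2, and with upper quartile scaling, scaling by library size alone or a minimum mean of 1 CPM (adjusted p in edgeR 0.022 to 0.050 over these). The median was 0.06 without control replicate 3.

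Regulators of MEF2 activity, a list that also counts Mef2b, gave 2 higher and 3 lower of 18 tested, with a median of -0.04. Hdac4, a class IIa histone deacetylase that represses MEF2 proteins, rose to 93.9 ± 15 CPM in 1C-MIM, against 40.95 ± 1.1 CPM in control (log2 fold change 1.20 ± 0.10, edgeR, adjusted p = 1.0e-05). Ppp3ca, which encodes 1 of the catalytic subunits of calcineurin, rose by 0.41, and the kinase genes Camk2g and Camk2d fell by 0.27 and 0.37. Hdac7 and Cabin1, a MEF2 corepressor, both lay at 0.00. Hdac5, of class IIa like Hdac4 and Hdac7, lay at 0.11 and was not called. Hdac9, also of class IIa, fell by 0.59 against control (edgeR, adjusted p = 0.0256) and by 0.63 against scramble (adjusted p = 0.0214). It averaged 5.14 ± 1.1 CPM in 1C-MIM and 7.76 ± 1.2 CPM in control. The count was 2 higher and 5 lower with scaling by library size alone, and 4 higher and 5 lower without the libraries numbered 1.

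Coactivators gave 9 higher and 2 lower of 17 tested, with a median of 0.16. The acetyltransferase gene Crebbp rose by 0.70, serum response factor (Srf) by 0.44 and the TEAD cofactor Vgll3 by 0.56, while Vgll2, a TEAD cofactor of skeletal muscle, fell by 0.93. Vgll2 had 10.3 ± 2.1 CPM in 1C-MIM and 19.6 ± 1.5 CPM in control. Ncoa2 and Med14 lay at 0.01 and 0.02 and were not called. Without 1C-MIM replicate 3 the count was 8 higher and 1 lower.

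**Figure D5:**
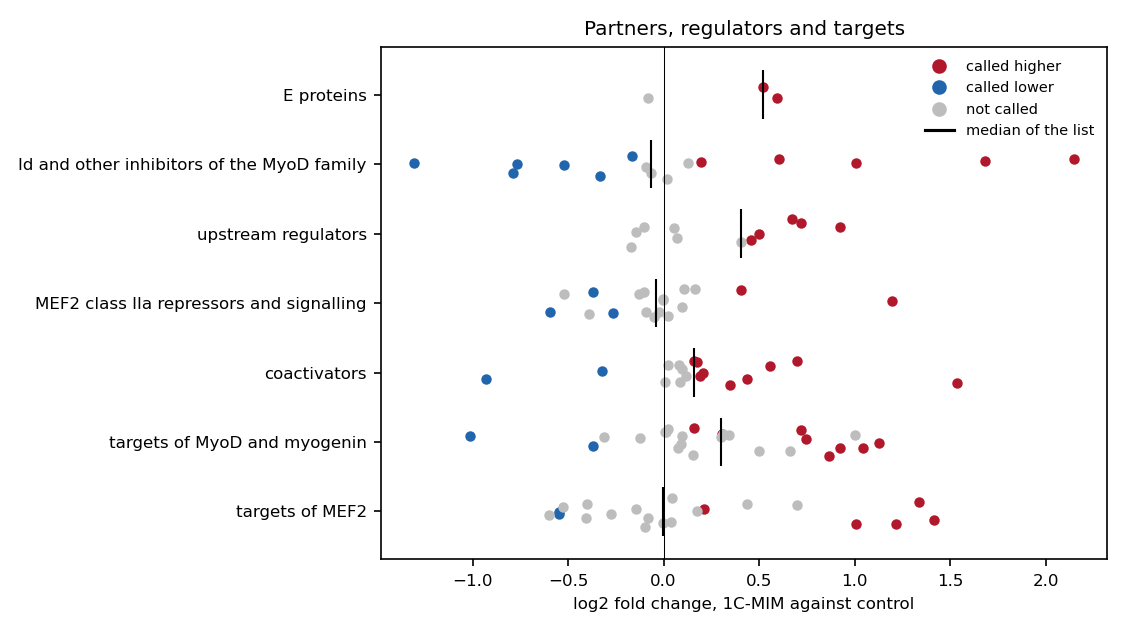
Log2 fold change in 1C-MIM against control (x axis) of each tested gene in 7 lists (rows), with 1 point per gene coloured by its call and a bar at the list's median. Upstream regulators have points called higher and none called lower, inhibitors have 5 called higher and 6 called lower, and the medians of both target lists lie at 0.30 and 0.00.

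Of 25 known targets of MyoD and myogenin, 8 rose and 2 fell, with a median of 0.30. Cdh15, the adhesion protein M-cadherin, rose to 417 ± 7.0 CPM in 1C-MIM, against 253 ± 7.8 CPM in control (log2 fold change 0.72 ± 0.06, edgeR, adjusted p = 8.4e-06). Mymx, the fusion protein myomixer, listed as Gm7325, rose by 0.92 ± 0.12. Cav3, the muscle caveolin, fell by 1.01 and Lmna, the nuclear lamin A and C gene, by 0.37. The structural genes Myl1 and Tnnt1 both lay at 0.01 and were not called. This count moved with single libraries. It was 5 higher and 2 lower (median 0.16) without 1C-MIM replicate 1, 13 higher and 2 lower (median 0.54) without control replicate 1, and 17 higher and 2 lower (median 0.53) without the libraries numbered 1.

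For the targets of MEF2, 5 of 21 rose and 2 fell, with a median of 0.00. Klhl40, which stabilises thin filament proteins, rose by 1.22 ± 0.18, the orphan receptor Nr4a1 by 1.34 ± 0.24 and Jun by 0.21 ± 0.04. Myoz2, a Z-disc protein of slow fibres, fell to 91.8 ± 1.3 CPM in 1C-MIM, against 134 ± 11 CPM in control (log2 fold change -0.55 ± 0.06, edgeR, adjusted p = 4.6e-05). Xirp1 and Hrc lay at 0.00 and 0.04 and were not called. The count was 8 higher and 2 lower (median 0.28) without control replicate 1, and 11 higher and 3 lower (median 0.20) without the libraries numbered 1. It was 5 higher and 4 lower (median -0.20) without control replicate 3, and 5 higher and 1 lower without 1C-MIM replicate 2 or 3.

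Against scramble the 7 lists gave 2 higher and 0 lower of E proteins, 4 and 5 of inhibitors, 6 and 0 of upstream regulators, 2 and 3 of MEF2 regulators, 7 and 2 of coactivators, 8 and 2 of MyoD and myogenin targets and 5 and 3 of MEF2 targets. The sixth upstream regulator was Pax3, at 0.436 CPM in 1C-MIM and 0.134 CPM in scramble. That call was lost when any of 4 single libraries was left out, 1C-MIM replicate 1 or 3 or scramble replicate 1 or 2, with adjusted p-values up to 0.111 in edgeR. Eya3 was called lower against scramble with upper quartile scaling, with library size alone, with the compared groups alone and without the libraries numbered 1 (adjusted p in edgeR 0.024 to 0.042). The MEF2 regulators gave 2 higher and 6 lower with the compared groups alone and 2 higher and 5 lower with library size alone. Without 1C-MIM replicate 2 or 3 or scramble replicate 1, MEF2 targets gave 5 higher and 1 lower, and 1 coactivator was lower instead of 2, as also without scramble replicate 3. Without the libraries numbered 1 the MyoD and myogenin targets gave 15 higher and 3 lower against scramble, and the MEF2 regulators 5 higher and 6 lower. No gene of any list was called between scramble and control, except that without the libraries numbered 1 there were 4 inhibitors (Id1, Id2 and Id3 lower and Heyl higher), 1 MyoD or myogenin target and 3 MEF2 targets.

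Marker genes of the cells were read beside the members. Summed CPM of 6 fibre markers was 6460 to 8123 in 1C-MIM, 4919 to 7105 in scramble and 4178 to 8150 in control, with 1 of the 6, Ckm, called higher in 1C-MIM against both groups. Against control 2 of the 6 were called higher without control replicate 1 (median log2 fold change 1.01) and 5 without the libraries numbered 1. Against scramble 2 were called higher with the compared groups alone and 3 without the libraries numbered 1. Summed CPM of 6 myoblast and reserve cell markers, Myf5 among them, was 1032 to 1121 in 1C-MIM, 873 to 888 in scramble and 797 to 843 in control. Of the 6, 3 were called higher and 1, Cd34, lower. Cdh15, also listed as a MyoD and myogenin target, averaged 417 CPM in 1C-MIM and 253 CPM in control. Vcam1 averaged 312 CPM in 1C-MIM and 165 CPM in control, and Cd34 48.1 and 123 CPM. The 5 fibroblast markers summed to 136 to 159 CPM in 1C-MIM, 88.2 to 94.1 CPM in scramble and 81.7 to 87.8 CPM in control. Most of this sum was 1 gene, Pdgfra, at 119 to 135 CPM in 1C-MIM, 76.8 to 81.2 CPM in scramble and 70.5 to 74.4 CPM in control. Of the 5 fibroblast markers, 4 were called higher against both groups. Against scramble 2 were called without 1C-MIM replicate 1, without scramble replicate 2 or at an adjusted p below 0.01. Endothelial markers summed to no more than 1.17 CPM in any library, with Emcn at 0. Tek, the endothelial marker that passed the filter on low counts, was called higher in 1C-MIM, at 0.928 ± 0.16 CPM in 1C-MIM, 0.342 ± 0.07 CPM in scramble and 0.299 ± 0.10 CPM in control (edgeR, adjusted p = 0.0036 against scramble and 0.0017 against control). Macrophage markers summed to no more than 4.12 CPM, with Adgre1 (listed as Emr1) at 0. Adipocyte markers summed to 6.36 to 7.08 CPM in 1C-MIM, 6.98 to 8.23 CPM in scramble and 7.12 to 8.12 CPM in control, and neuron and Schwann cell markers to at most 1.37 CPM. The part of cell make-up in the results was not tested, and in bulk RNA fewer cells of a type and less RNA per cell cannot be told apart.

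The genes whose log2 CPM followed each member most closely over the 9 libraries were named by Pearson's r, as a description. Since 1C-MIM libraries differ from the other 6 in so many genes, r mostly repeats that gap. For Myog they were Pcx, Bcl6 and Klhl40, each with an r of 1.00 after rounding, and Klhl40 is also in the list of MEF2 targets. Mef2a was followed most closely by Iffo1 (1.00), Atp6v0a2 (0.99) and Zbtb18 (0.99), Mef2d by Slc2a6, Ehd4 and Frmpd1 (all 1.00) and Myod1 by Pwp2, Naa25 and Heatr1 (all 0.99). Mef2c was followed by Lmo7 (0.99), Mllt11 (0.99) and Ccdc22 (0.98), and Lmo7 had 146, 141 and 136 CPM in 1C-MIM, 207, 177 and 170.4 CPM in scramble and 224, 176 and 161 CPM in control. The values were lower for Myf6, with Hmox1, Kif3b and N4bp1 at 0.96, 0.96 and 0.95, and for Myf5, with Ext1, Abcc1 and Ndufa9 at 0.89, 0.88 and 0.87. Among the members, Myog and Mef2a had an r of 0.99. The r of Myf5 with each of the other 6 was small and negative, from -0.31 with Mef2d to -0.02 with Myod1. By exon position Klhl40, Bcl6, Atp6v0a2, Mllt11, Ccdc22, Naa25 and Ndufa9 overlap another annotated gene, as do Hdac4, Hdac7, Bhlhe41 and Pitx3. These overlaps lie on the opposite strand, from 0.585% of exon bases for Hdac7 to 29.1% for Naa25. Ccdc22 also shares 85.0% of its exon bases with Gm36995 on the same strand.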

How the data were processed

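RNA was sequenced from 9 libraries, 3 each of 1C-MIM, scramble and control C2C12 fibres, made from 1.3 µg of total RNA with a SMARTer mRNA kit, per the labels' protocols. Each deposited table lists 33984 RefSeq transcripts with a count, FPKM and TPM, per the file headers. The authors' counts are whole and not normalized. The authors' TPM are scaled by transcript length and library and served for levels between genes. The deposited FPKM served, with the counts, only for the transcript lengths of Mef2c and Mef2d. The submitters' processing notes name the build GRCm39 and, with no roles, STAR, Salmon 1.5.2, StringTie 2.2.1, featureCounts of Subread 2.0.1, DESeq2 1.28.0, Trim Galore 0.6.7, Picard 2.27.4, SAMtools 1.15.1 and bedtools 2.30.0. Neither strand use in counting nor the tool behind each value is stated in those sources.

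Here 1 transcript stood for each symbol, edgeR's filterByExpr kept 14006 genes, and all libraries entered 1 robust quasi-likelihood fit (R 4.3.3, edgeR 4.0.16, limma 3.58.1) with TMM factors of 0.981 to 1.02. Untested genes held 0.0280% of counts. CPM use the normalized library sizes, and correlations log2 CPM with a prior count of 2. Calls need a Benjamini-Hochberg adjusted p below 0.05. The fit was tested on simulated data, which held no shift of replicate 1. It recovered 34% of genes changed 1.25-fold, 82% of those changed 1.5-fold and 100% of those changed 2-fold. Of 172 calls there, 14 were false. On the first principal component, with 66.7% of the variance, 1C-MIM libraries scored 39.9 to 46.7 and the others -24.8 to -18.7. On the second (11.4%), replicate 1 scored highest in each group. Alternatives were other scalings and filters, DESeq2 1.42.0, limma-voom, a replicate block, the compared groups alone, other transcript choices, a stricter threshold and each library left out. The removal of all libraries numbered 1 was added after the data were seen.

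The members and lists were chosen with earlier results of these data known. From each list up to 4 called genes with the smallest p and up to 2 with the smallest absolute log2 fold change, with at least 5 CPM, are named, and any E protein, Id or upstream gene. Outside this rule, Ckm, Cd34, Vcam1, Pdgfra, Tek, Mef2b, Hdac5 and Hdac9 were named after their values were seen. For likeness the 3 highest Pearson r are named, without predicted genes. Older symbols in the tables were matched through a gene name table, and Mrtfa was not analysed here. Some listed genes are counted but not reported here by name.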

Additional observations from a re-analysis of the deposited data

How the results depend on the processing

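Across 19 alternatives the calls of Myod1, Myog, Mef2a and Mef2d held in edgeR, DESeq2 and limma-voom against both control and scramble. Their log2 fold changes, together with those of Mef2c, ranged against control from 1.12 to 1.42 for Myog, from 0.95 to 1.29 for Mef2a, from 0.44 to 0.52 for Myod1, from 0.44 to 0.67 for Mef2d and from -0.95 to -0.56 for Mef2c. The call of Mef2c was lost only at an adjusted p below 0.01. That of Myf6 was lost in 7 alternatives against control, library size alone (adjusted p = 0.0572) and the stricter threshold among them, and in 5 against scramble. Xirp1 turned to 0.38 in 1C-MIM against control, and was called, without the libraries numbered 1. The cause was not tested. Differences not called in either fit were not counted when they changed sign.

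Genes called in 1C-MIM ranged from 5487 to 7195 against control and from 5267 to 5879 against scramble when single libraries were left out. Between scramble and control, 3 genes were called without control replicate 1, 96 without the libraries numbered 1 and 4 by DESeq2, none of them a member. Scaling by library size alone moved the median log2 fold change of all genes by -0.05 at most.

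Libraries of different groups with the same replicate number correlated in their deviations from the group means at 0.0279 to 0.481 over 9 pairs. Those with unlike numbers correlated at -0.369 to 0.242 over 18 pairs. In 11 of 18 cases a library correlated best with its own number in another group, so a shared number is only a hint of pairing. With the replicate block 7397 genes were called against control, 7309 against scramble and 0 between scramble and control, and 6 members were called in both comparisons with 1C-MIM. With the block, Eya4 was called lower against control and Eya3 against scramble (adjusted p = 0.036 and 0.032 in edgeR), 2 of 6 fibre markers were called higher against both, and against scramble MyoD and myogenin targets gave 12 higher and 4 lower and MEF2 regulators 2 higher and 5 lower. Depth limits Myf6, with 33 to 81 counts per library.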
